A study of Mus musculus with 8 samples.

Results

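The transcripts described here encode 10 receptor proteins through which macrophages sense interferons, interleukin-10 (IL-10), granulocyte-macrophage colony-stimulating factor (GM-CSF), interleukin-4 (IL-4) and inflammatory chemokines. The genes were Ifngr1, Ifngr2, Ifnar1, Ifnar2, Il10ra, Il10rb, Csf2ra, Csf2rb, Il4ra and Ccr1, taken by name, and all 10 were found among the 55335 gene identifiers of the deposited table. Expression was measured by RNA sequencing in RAW264.7, a transformed mouse line with macrophage character, after 3 days of culture with one of a pair of bone scaffold materials. The materials were the Trio-Active bone scaffold (TABS, 4 libraries) and hydroxyapatite doped with Mg2+ (HA/Mg, 4 libraries), and libraries carried the replicate numbers 5 to 8 in both groups. Cells without a scaffold were not part of the comparison, and the labels gave no genotype or added cytokine for either group. Names of the table's columns carry an H for TABS libraries and an L for HA/Mg ones, and whether the groups were exchanged, in which case all directions below would turn round, was not tested. Nothing in the labels tied the libraries of a group to separate cultures, so p-values reflect how far the deposited libraries spread, and that spread may be technical.

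These receptors have no enzyme activity of their own, and Ccr1 differs from the rest in signalling through G proteins. The others are chains of receptors that carry Janus kinases (JAKs), and a ligand that brings the chains together lets the kinases activate STAT transcription factors. Interferon-gamma primes macrophages for killing of microbes, type I interferons induce antiviral genes, IL-10 restrains inflammatory output, GM-CSF supports survival and growth, and IL-4 drives alternative activation.

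Values were FPKM (fragments scaled by transcript length and sequencing depth), with 9908 to 10280 genes at 1 FPKM or more per library. The spacing of low values implied about 19600000 to 23600000 fragments per library. On that estimate the fewest fragments behind a value of a receptor other than Ccr1 were 264 (Ifngr1), a counting error of 6.16%. Of 9 macrophage markers 8 were tested, and Cd68 and Cd14 rose (limma adjusted p of 0.0197 and 0.0168) while the other 6 did not pass. Of all tested genes 5.07% rose. The 9 markers summed to 2377 to 2683 FPKM with TABS and 1963 to 2360 FPKM with HA/Mg, groups that did not overlap. Among single tested genes 23.1% separated in this way. Lyz2 was the largest part of each sum (1256 to 1595 FPKM with TABS and 1081 to 1423 FPKM with HA/Mg), and its own groups overlapped. Of the 8 tested markers 6 had positive log2 changes (TABS minus HA/Mg), and Itgam (-0.08) and Ptprc (-0.12) had negative ones. The part of the markers in the results below was not tested. Mrc1, the mannose receptor, was at most 0.0148 FPKM in every library. The 4 T cell markers summed to at most 0.0235 FPKM, the 3 epithelial markers to at most 0.022 FPKM, the 4 neutrophil markers to at most 0.2 FPKM and the 4 B cell markers to at most 0.56 FPKM. The 5 fibroblast or osteoblast markers summed to at most 0.202 FPKM and the 3 endothelial markers to at most 0.439 FPKM.

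Of the 10 receptor genes 4 lie in a cluster. Ifnar2, Il10rb, Ifnar1 and Ifngr2 occupy 193 kb of chromosome 16 (GRCm38, 91372783 to 91565623), all on the plus strand and all annotated as protein-coding. The sequences upstream of Ifnar2, Ifnar1 and Ifngr2 are printed beside that of Ccr1, the receptor with hardly any transcript in these cells, because they differ from it in base composition. Each run holds the 250 bases before the RefSeq start, read 5′ to 3′ from RefSeq on GRCm38.p6, with capitals at matches to the GC box (GGGCGG) or to the STAT-binding GAS motif (TTCNNNGAA).
Ifnar2 (chr16:91372533-91372782, plus strand): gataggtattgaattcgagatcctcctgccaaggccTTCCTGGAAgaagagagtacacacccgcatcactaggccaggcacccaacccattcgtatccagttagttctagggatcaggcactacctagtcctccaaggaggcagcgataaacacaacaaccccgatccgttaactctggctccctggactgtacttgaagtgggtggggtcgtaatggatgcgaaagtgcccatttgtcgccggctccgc
Ifnar1 (chr16:91484965-91485214, plus strand): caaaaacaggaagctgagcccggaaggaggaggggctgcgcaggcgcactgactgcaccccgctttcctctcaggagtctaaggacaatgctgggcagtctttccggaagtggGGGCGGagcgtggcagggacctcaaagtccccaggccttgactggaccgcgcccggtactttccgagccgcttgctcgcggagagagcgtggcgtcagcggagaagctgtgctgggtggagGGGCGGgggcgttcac
Ifngr2 (chr16:91546809-91547058, plus strand): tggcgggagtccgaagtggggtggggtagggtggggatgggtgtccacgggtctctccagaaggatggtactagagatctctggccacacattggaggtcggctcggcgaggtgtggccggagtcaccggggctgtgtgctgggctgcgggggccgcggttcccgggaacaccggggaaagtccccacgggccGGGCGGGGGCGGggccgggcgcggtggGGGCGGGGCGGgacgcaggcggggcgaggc
Ccr1 (chr9:123968693-123968942, minus strand): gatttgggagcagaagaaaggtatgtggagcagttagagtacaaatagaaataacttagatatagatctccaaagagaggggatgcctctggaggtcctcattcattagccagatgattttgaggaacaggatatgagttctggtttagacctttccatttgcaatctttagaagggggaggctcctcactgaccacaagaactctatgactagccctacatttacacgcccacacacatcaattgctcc

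The RefSeq promoter table held 7 of the 10 receptor genes, without Il10ra, Il10rb and Csf2rb. Over the 250 bases, Ccr1 had 43.6% G and C and 1 CpG dinucleotide, and 7.87% of all 32851 promoters had fewer CpGs. The other 6 receptor genes had 54.0% to 74.0% G and C and 11 to 25 CpGs, against a median of 52.4% and 6 over all promoters. Ifngr2 was the richest of the 7, with 74.0% G and C and 25 CpGs, and 95.1% of promoters had a lower G and C share. Ifnar2, the receptor with the highest mean FPKM, had the lowest G and C share of the 6 (54.0%), with 11 CpGs and no GC box. A link between base composition and transcript level was not tested. Motifs were searched on both strands, with overlapping matches counted separately. GC boxes were found in 5 of the 7 (Ifngr1, Ifngr2, Ifnar1, Csf2ra and Il4ra) and in 32.7% of all promoters. The GAS motif was found in 1 of the 7, Ifnar2, with its first base 214 bases before the start, and in 7.02% of all promoters. No match was found in the 7 for the interferon-stimulated response element (2.98% of all promoters), for the PU.1 motif GAGGAAGT (2.44%) or for TATAAA (12.4%). A match or its absence describes the letters of this window only.

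**Figure D1:**
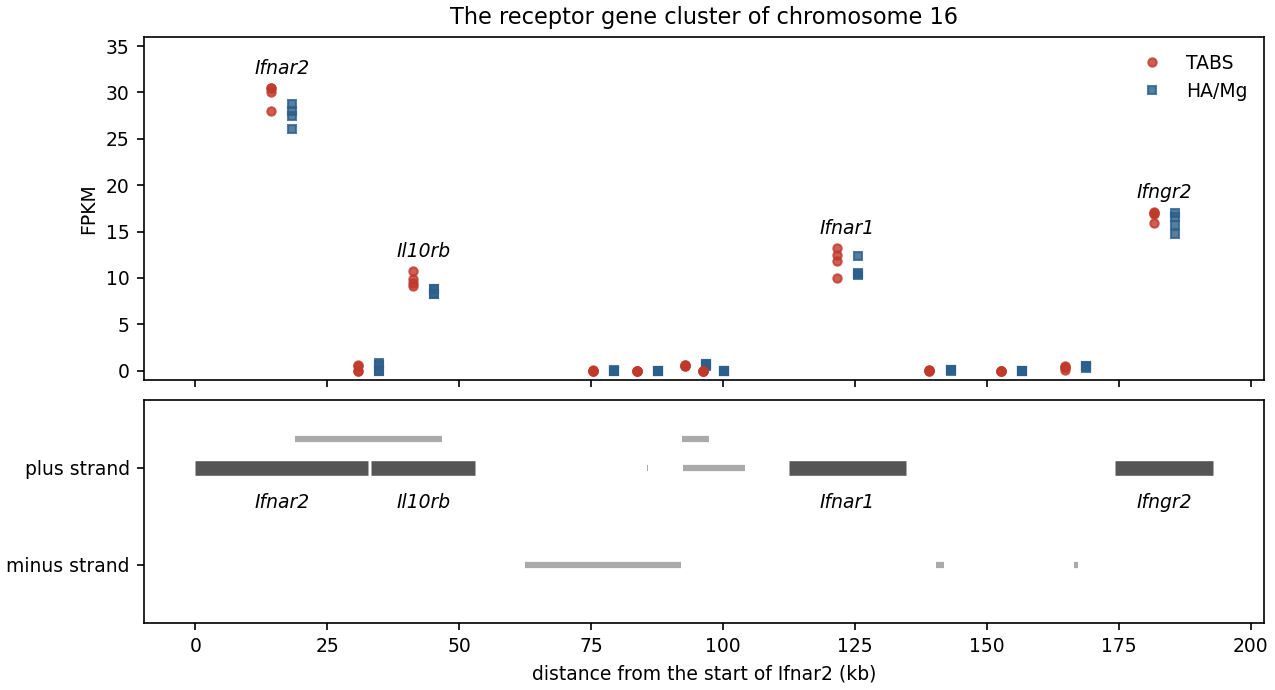
FPKM of every annotated gene in the chromosome 16 receptor cluster (top, points are libraries, red circles TABS and blue squares HA/Mg) above the genes' extent in kb from the start of Ifnar2 (bottom, dark bars the 4 receptor genes, grey bars the other 8, some raised to avoid overlap). The 4 receptors lie between 8.27 and 30.5 FPKM and the other genes reach at most 0.815 FPKM.

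The other 8 genes annotated within the cluster, among them Gm21970, which overlaps both Ifnar2 and Il10rb, reached at most 0.815 FPKM. Gm21970 shares 315 exon bases with Ifnar2 and 569 with Il10rb, and it was listed at 0 to 0.659 FPKM with TABS and 0 to 0.815 FPKM with HA/Mg. The assignment of reads from the shared bases was not stated in the labels. The remaining receptor genes lie apart, Ifngr1 on chromosome 10 (19591949 to 19610229, plus strand), Il10ra on chromosome 9 (45253837 to 45269149, minus strand) and Ccr1 on chromosome 9 (123962124 to 123968692, minus strand). Csf2ra lies on chromosome 19 (61223957 to 61228429, minus strand), Csf2rb on chromosome 15 (78325752 to 78353847, plus strand) and Il4ra on chromosome 7 (125552120 to 125579474, plus strand). Exons of Il4ra share 571 bases with the antisense gene Gm44876, which was listed at 0 FPKM in all 8 libraries.

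Over the 8 libraries the receptor transcripts differed widely in level per length (order by mean FPKM ± SD, n = 8, with a median tested gene at 7.74 FPKM). Ifnar2 stood highest at 28.7 ± 1.59 FPKM, above 81.7% of tested genes, and its lowest library (26.1 FPKM) exceeded the highest library of Csf2ra (21.4 FPKM). Csf2ra (17.5 ± 2.27 FPKM) and Ifngr2 (16.4 ± 0.856 FPKM) followed, and their ranges overlapped, with Csf2ra the higher in 5 of 8 libraries. Ifnar1 (11.4 ± 1.23 FPKM) was above Il10rb (9.18 ± 0.842 FPKM) in all 8 libraries, although the ranges overlapped. Ifngr1 (7.02 ± 0.854 FPKM), Il10ra (5.76 ± 1.61 FPKM) and Csf2rb (5.58 ± 1.99 FPKM) formed a group with overlapping ranges, and Il10ra exceeded Csf2rb in 4 of 8 libraries. Il4ra was the lowest that entered the test, at 3.64 ± 0.552 FPKM, below Csf2rb in every library and above 28.3% of tested genes. Ccr1 stood at 0.0456 ± 0.023 FPKM.

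**Figure D2:**
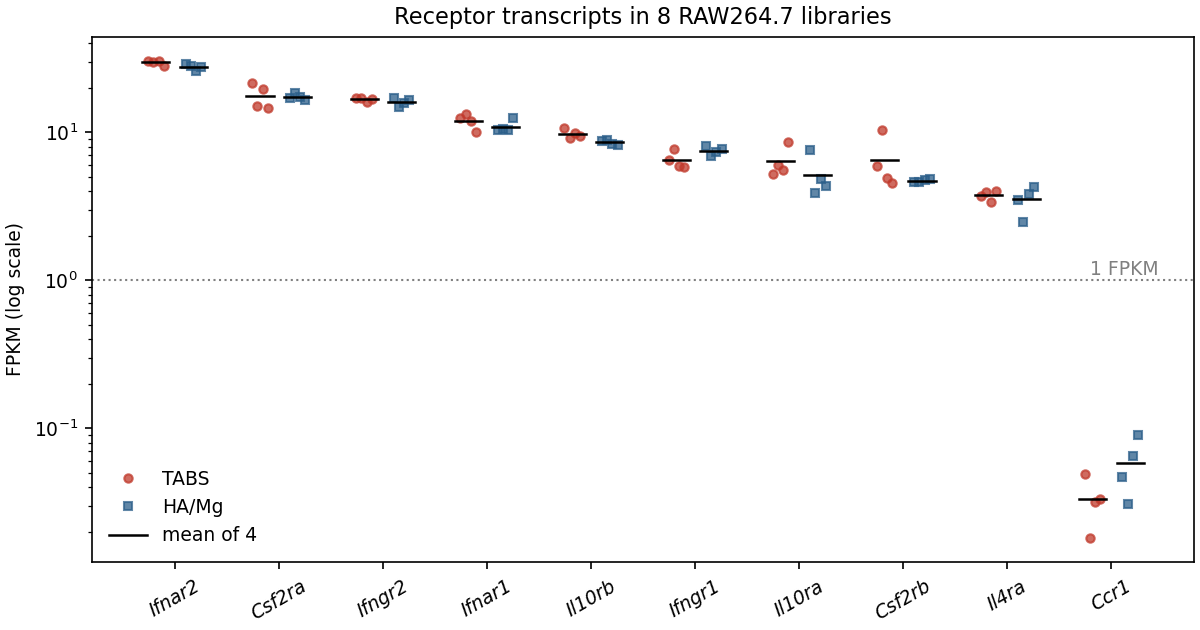
FPKM of the 10 receptor genes on a log scale, ordered by mean, with each point a library (red circles TABS, blue squares HA/Mg) and each black line the mean of 4. Of the 10, 9 lie between 2.47 and 30.5 FPKM and Ccr1 lies at 0.018 to 0.0902 FPKM.

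None of the 9 tested receptor genes changed between TABS and HA/Mg at an adjusted p under 0.05 in limma, where 18.1% of all 10161 tested genes did (5.07% higher with TABS and 13.1% lower). At an unadjusted p under 0.05 the count was 1 of 9, Il10rb, where 3703 of 10161 genes (36.4%) lay. With 9 genes, a count of 0 against that background is no result about the receptors, and it does not show that they were alike in both groups. In bulk RNA, fewer cells of a type and less RNA per cell cannot be told apart. The median log2 change of the 9 was 0.11, against -0.04 over all tested genes, and 8 of 9 changes were positive, against 42.3% of all genes. These signs come from the same 8 libraries and are not independent, and all intervals but that of Il10rb include 0. The median over all tested genes was 0.008 with median-of-ratios scaling and -0.078 after rescaling to equal sums. Like the count of 0, the signs are no result about the receptors. Differences are given for TABS minus HA/Mg in log2(FPKM + 1), which understates low genes, and intervals are 95% intervals from limma.

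**Figure D3:**
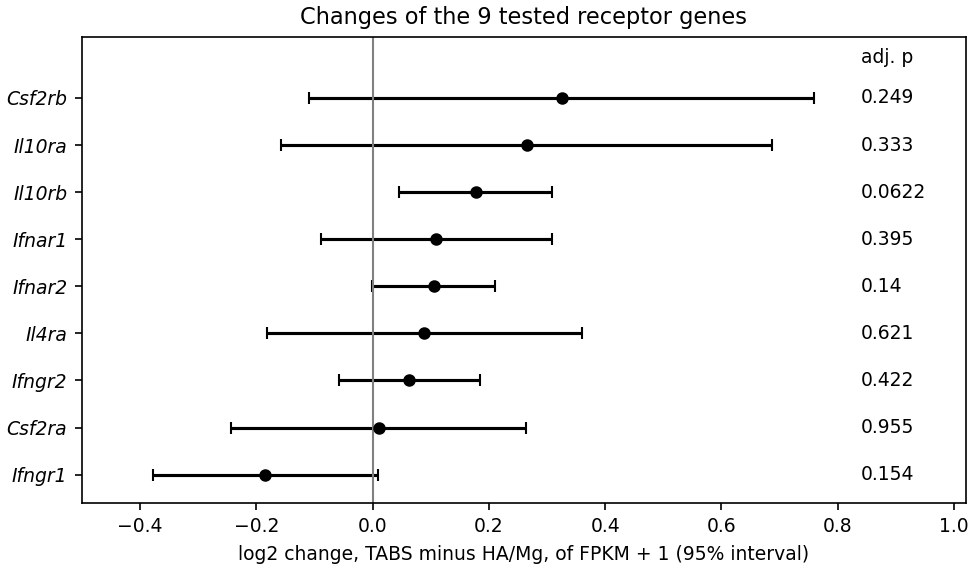
Log2 change (TABS minus HA/Mg, of FPKM + 1) of the 9 tested receptor genes with its 95% interval from limma, and the adjusted p at the right. Intervals include 0 for all but Il10rb, and no adjusted p is under 0.05.

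The receptor for interferon-gamma is made of Ifngr1, the chain that binds the ligand and carries JAK1, and Ifngr2, the chain that brings JAK2. Ifngr1 had 6.54, 7.77, 5.93 and 5.86 FPKM across TABS replicates 5 to 8, against 8.12, 6.91, 7.35 and 7.69 FPKM across HA/Mg replicates 5 to 8. Of the 4 TABS libraries 3 lay below every HA/Mg library, and TABS replicate 6 lay among the HA/Mg values. The log2 change was -0.18 ± 0.09 (SE; interval -0.38 to 0.01; limma adjusted p = 0.154), and Ifngr1 was the one tested receptor with a negative change. Without TABS replicate 6 the change was -0.26 with an adjusted p of 0.0505. Ifngr2 had 17.1, 17.0, 15.9 and 16.9 FPKM across TABS replicates 5 to 8, against 17.0, 14.7, 15.7 and 16.5 FPKM across HA/Mg replicates 5 to 8. Its groups overlapped and its log2 change was 0.06 ± 0.05 (SE; interval -0.06 to 0.18; limma adjusted p = 0.422).

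A ratio of both chains within a library does not depend on how that library was scaled. Ifngr1 over Ifngr2 was 0.382, 0.456, 0.372 and 0.347 in TABS replicates 5 to 8, and 0.477, 0.469, 0.469 and 0.465 in HA/Mg replicates 5 to 8. Every TABS ratio was below every HA/Mg ratio, with means of 0.389 ± 0.0469 with TABS and 0.470 ± 0.00483 with HA/Mg (SD, n = 4 each). On the log2 scale the difference was -0.28. A two-sided exact permutation test gave p = 0.0286, which is the lowest value 4 libraries a group allow. After adjustment over the 4 receptor pairs it did not pass (adjusted p = 0.114). A pair that alone reached the lowest value could not have passed, so the adjusted p decides nothing about this pair. The separation alone decides nothing either, as 23.1% of single tested genes had groups that did not overlap. The share among ratios of other gene pairs was not tested. The HA/Mg ratios varied by 1.03% of their mean, less than the 6.16% counting error estimated for the lowest Ifngr1 value. That value was of a TABS library (replicate 8, 5.86 FPKM). The HA/Mg values of Ifngr1 were higher (6.91 to 8.12 FPKM), and a counting error of their own is not given here. In the other pairs the HA/Mg ratios varied by 6.03% to 30.5% of their mean.

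The receptor for type I interferons joins Ifnar1, which carries the kinase TYK2, to Ifnar2, the chain of high affinity that carries JAK1. Ifnar2 had 30.5, 30, 30.5 and 28.0 FPKM across TABS replicates 5 to 8, against 28.8, 28.0, 26.1 and 27.5 FPKM across HA/Mg replicates 5 to 8. Of the TABS libraries, 3 lay above all of HA/Mg and replicate 8 lay within its range, and the log2 change was 0.11 ± 0.05 (SE; interval -0.0009 to 0.21; limma adjusted p = 0.140). Ifnar1 had 12.4, 13.3, 11.9 and 10 FPKM across TABS replicates 5 to 8, against 10.4, 10.5, 10.3 and 12.4 FPKM across HA/Mg replicates 5 to 8. The groups overlapped at both ends, with TABS replicate 8 the lowest of all 8 libraries, and the log2 change was 0.11 ± 0.09 (SE; interval -0.09 to 0.31; limma adjusted p = 0.395). The ratio of Ifnar1 to Ifnar2 was 0.399 ± 0.0353 with TABS and 0.396 ± 0.0394 with HA/Mg (SD, n = 4 each; exact permutation p = 0.943, adjusted p = 0.943).

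The IL-10 receptor consists of Il10ra, the chain specific to IL-10, and Il10rb, a chain shared with the receptors of IL-22 and of type III interferons. Il10rb had 10.8, 9.16, 9.88 and 9.42 FPKM across TABS replicates 5 to 8, against 8.77, 8.84, 8.30 and 8.27 FPKM across HA/Mg replicates 5 to 8. It was the only one of the 9 whose groups did not overlap, a separation that 23.1% of all tested genes showed. The log2 change was 0.18 ± 0.06 (SE; interval 0.05 to 0.31; unadjusted p = 0.0134) and did not pass (limma adjusted p = 0.0622). The call depended on the setting, and Il10rb passed in 4 of 19 alternatives, with limma adjusted p from 0.0327 to 0.164 over all 19. It passed with median-of-ratios scaling (adjusted p = 0.0390) and quantile normalization (adjusted p = 0.0336). It passed too with array weights (adjusted p = 0.0327) and without HA/Mg replicate 6 (adjusted p = 0.0449). After rescaling to equal sums it did not pass, and no receptor had a limma adjusted p under 0.127.

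Il10ra had 5.22, 6.01, 5.56 and 8.62 FPKM across TABS replicates 5 to 8, against 7.60, 3.91, 4.87 and 4.32 FPKM across HA/Mg replicates 5 to 8. A single library in each group, TABS replicate 8 and HA/Mg replicate 5, stood well above its 3 companions. The spread within groups (residual SD 0.322 on the log2 scale) was larger than that of 96.5% of tested genes, and the log2 change of 0.26 ± 0.19 had an interval of -0.16 to 0.69 (SE; limma adjusted p = 0.333). The change was 0.13 without TABS replicate 8, 0.44 without HA/Mg replicate 5 and 0.17 without HA/Mg replicate 6, and none of these passed. The ratio of Il10ra to Il10rb was 0.654 ± 0.187 with TABS and 0.605 ± 0.184 with HA/Mg (SD, n = 4 each; exact permutation p = 0.657, adjusted p = 0.876).

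**Figure D4:**
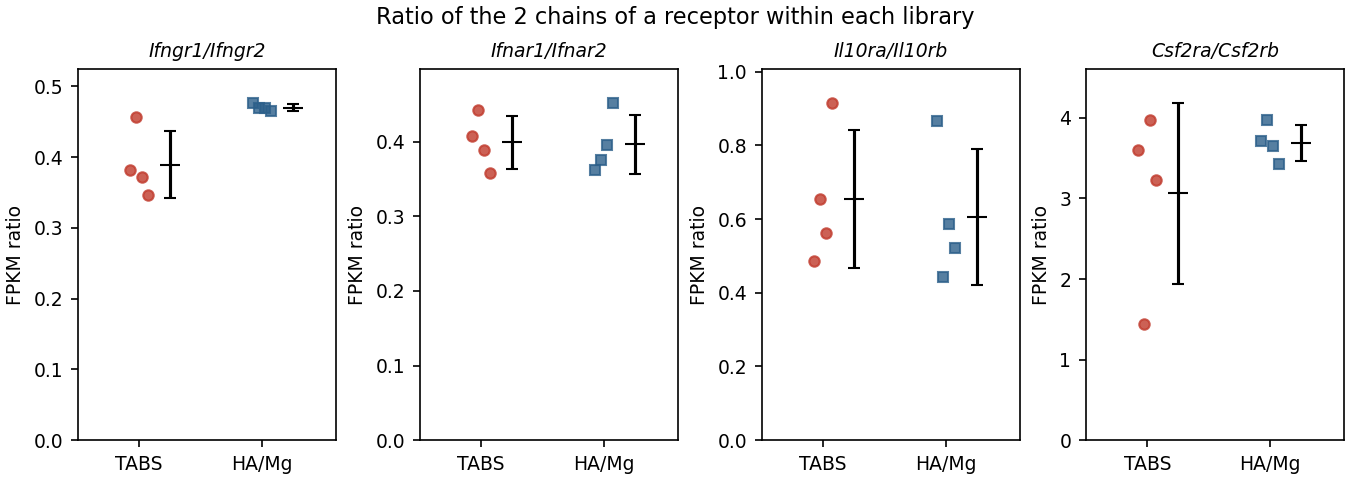
FPKM of the first chain over that of its partner in each library (red circles TABS, blue squares HA/Mg), with the mean and SD of 4 at the right of each group, and each axis starting at 0. Ifngr1/Ifngr2 is the pair whose groups do not overlap, and TABS replicate 6 stands apart at 1.44 in Csf2ra/Csf2rb. Among single tested genes 23.1% had groups that did not overlap.

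The GM-CSF receptor pairs Csf2ra, the chain specific to GM-CSF, with Csf2rb, the common beta chain that also serves IL-3 and IL-5 and carries JAK2. Csf2ra had 21.4, 15.0, 19.7 and 14.7 FPKM across TABS replicates 5 to 8, against 17.1, 18.4, 17.4 and 16.5 FPKM across HA/Mg replicates 5 to 8. The TABS values fell on both sides of all HA/Mg values, 2 above and 2 below, and the log2 change was 0.01 ± 0.11 (SE; interval -0.24 to 0.26; limma adjusted p = 0.955). The sign of that change was negative in 6 of 19 alternatives, with -0.12 after removal of length and GC trends, -0.04 after rescaling to equal sums and -0.03 with array weights. It was negative too without TABS replicate 5 (-0.08), TABS replicate 7 (-0.04) or HA/Mg replicate 8 (-0.01). Csf2rb had 5.94, 10.4, 4.95 and 4.55 FPKM across TABS replicates 5 to 8, against 4.61, 4.63, 4.78 and 4.80 FPKM across HA/Mg replicates 5 to 8. TABS replicate 6 held more than the other 3 TABS libraries, whereas the HA/Mg libraries averaged 4.70 ± 0.0986 FPKM (SD, n = 4). The log2 change was 0.33 ± 0.19 (SE; interval -0.11 to 0.76; limma adjusted p = 0.249), and it was 0.10 without TABS replicate 6.

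In mice Csf2rb has a neighbour and near copy, Csf2rb2, which encodes a beta chain specific to IL-3. Of the windows of 100 bases along the longest Csf2rb transcript 6.96% occur unchanged in the longest Csf2rb2 transcript, and 3.47% of windows of 150 bases do, so some reads cannot be assigned to either with certainty. Csf2rb2 had 2.80, 2.95, 1.91 and 2.08 FPKM across TABS replicates 5 to 8, against 2.08, 1.85, 1.90 and 2.34 FPKM across HA/Mg replicates 5 to 8. The copy too was highest in TABS replicate 6, the groups overlapped, and it did not pass (log2 change 0.17 ± 0.11, SE; limma adjusted p = 0.297). The ratio of Csf2ra to Csf2rb was 3.06 ± 1.123 with TABS and 3.69 ± 0.222 with HA/Mg (SD, n = 4 each; exact permutation p = 0.343, adjusted p = 0.686). It stood at 1.44 in TABS replicate 6, against 3.23 to 3.98 in the other TABS libraries and 3.43 to 3.97 with HA/Mg. On the log2 scale the difference was -0.37 with all libraries and -0.04 without TABS replicate 6.

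Il4ra, the chain that binds IL-4, signals with Il2rg (the common gamma chain, which carries JAK3) or with Il13ra1. Il4ra had 3.71, 3.93, 3.39 and 4.01 FPKM across TABS replicates 5 to 8, against 3.51, 2.47, 3.81 and 4.29 FPKM across HA/Mg replicates 5 to 8. All TABS values lay within the HA/Mg range, and the log2 change was 0.09 ± 0.12 (SE; interval -0.18 to 0.36; limma adjusted p = 0.621), or -0.03 without HA/Mg replicate 6. Il2rg was far more abundant per length, at 114 ± 3.50 FPKM with TABS and 95.5 ± 7.59 FPKM with HA/Mg (SD, n = 4 each), and it rose by 0.25 ± 0.06 on the log2 scale (SE; limma adjusted p = 0.0213). Its call was lost when TABS library 5 or 7, or HA/Mg library 5, 7 or 8, was left out (adjusted p from 0.0524 up to 0.0687). Il13ra1 stood at 5.20 ± 0.577 FPKM with TABS and 5.31 ± 0.230 FPKM with HA/Mg (SD, n = 4 each; limma adjusted p = 0.800).

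Ccr1, the receptor for the chemokines CCL3, CCL5 and CCL9 among others, was listed at 0.0492, 0.018, 0.0316 and 0.0333 FPKM across TABS replicates 5 to 8, against 0.0471, 0.0307, 0.0645 and 0.0902 FPKM across HA/Mg replicates 5 to 8. A count of 3 fragments would be worth 0.0449 to 0.0539 FPKM for this transcript, and 4 TABS libraries and 2 HA/Mg libraries lay at or below their own floor within 0.05 fragment. It was too low to be tested, and a difference was not detectable at this depth. Ccr3, another chemokine receptor, was listed at 0 FPKM in all 8 libraries.

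Most ligands of these receptors were at or near 0 in the same cells. Of 22 genes listed as ligands 17 stayed under 1 FPKM in every library and 11 of them were listed at 0 throughout, among these Ifng, the gene of interferon-gamma. The 22 include Il19, Il20 and Il24, whose products bind none of these receptors. All of these are among the 17, and Il20 and Il24 are among the 11 at 0. Csf2, which encodes GM-CSF, was at 0.201 to 0.402 FPKM with TABS and 0.139 to 0.323 FPKM with HA/Mg, and Il10 at 0.0735 to 0.108 FPKM with TABS and 0 to 0.162 FPKM with HA/Mg. Ccl7 reached 1 FPKM in 1 library. Of the 4 ligand genes tested 3 rose, where 5.07% of all tested genes did. All 3 are chemokines that bind Ccr1, and Ccl6 did not pass. Ccl3 averaged 1314 ± 199 FPKM with TABS and 759 ± 51.8 FPKM with HA/Mg (SD, n = 4 each; log2 change 0.78 ± 0.10, limma adjusted p = 0.00851). Ccl5 averaged 76.4 ± 6.26 FPKM with TABS and 43.0 ± 8.59 FPKM with HA/Mg (limma adjusted p = 0.00859). Ccl9 averaged 209 ± 19.9 FPKM with TABS and 161 ± 17.9 FPKM with HA/Mg (limma adjusted p = 0.0232), and leaving out TABS library 7 or 8, or HA/Mg library 5, 7 or 8, ended the call (adjusted p from 0.0511 up to 0.0757).

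Inside the cell, 3 of 11 tested JAK and STAT genes changed, 2 higher and 1 lower, and 8 did not pass, where 18.1% of all tested genes changed. The count was 7 with median-of-ratios scaling, 6 with quantile normalization or array weights, and 2 after rescaling to equal sums or removal of length and GC trends. The count over all 10161 tested genes moved too, from 1842 to 1917 with median-of-ratios scaling, 1998 with quantile normalization and 3532 with array weights. It was 1800 after rescaling to equal sums and 783 after removal of length and GC trends. Jak1, the kinase on Ifngr1, Ifnar2, Il10ra and Il4ra, had 31.3, 31.6, 29.7 and 30.3 FPKM across TABS replicates 5 to 8, against 36.3, 33.7, 36.8 and 35.5 FPKM across HA/Mg replicates 5 to 8. All TABS values were below all HA/Mg values, and Jak1 fell by 0.20 ± 0.04 on the log2 scale (SE; limma adjusted p = 0.0170, or 0.0612 and 0.0617 without HA/Mg replicate 5 or 7). Jak3, which works with the common gamma chain, rose (5.02 ± 0.077 FPKM with TABS and 3.99 ± 0.173 FPKM with HA/Mg, SD; limma adjusted p = 0.0137, or 0.0878 after removal of length and GC trends). Jak2, the kinase on Ifngr2 and Csf2rb, stood at 6.65 ± 0.802 FPKM with TABS and 7.34 ± 0.935 FPKM with HA/Mg (SD; limma adjusted p = 0.410), and Tyk2 at 12.7 ± 0.626 FPKM with TABS and 11.5 ± 0.384 FPKM with HA/Mg (limma adjusted p = 0.0785).

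Of 13 tested inhibitors of these pathways 2 rose, 1 fell and 10 did not pass, a share near the 18.1% of all tested genes that changed and no result about inhibitors as a group. The count was 6 with array weights and 1 after removal of length and GC trends. In these settings 3532 and 783 of all 10161 tested genes changed. Usp18, which binds Ifnar2 and blocks type I interferon signalling, had 31.3, 29.4, 33.3 and 33.8 FPKM across TABS replicates 5 to 8, against 24.6, 25.6, 23.0 and 23.3 FPKM across HA/Mg replicates 5 to 8. The groups did not overlap, and Usp18 rose by 0.39 ± 0.06 on the log2 scale (SE; limma adjusted p = 0.00859). Socs3, an inhibitor of STAT3 signalling that IL-10 induces, rose (27.1 ± 2.48 FPKM with TABS and 20.5 ± 2.72 FPKM with HA/Mg, SD; limma adjusted p = 0.0265, or 0.139 after removal of length and GC trends and 0.0570 after rescaling to equal sums). Leaving out TABS library 5 or 6, or HA/Mg library 5 or 7, ended the call of Socs3 as well (adjusted p from 0.0603 up to 0.0779). Ptpn2, a phosphatase that acts on JAK1, fell (11.1 ± 0.598 FPKM with TABS and 13.6 ± 0.659 FPKM with HA/Mg, SD; limma adjusted p = 0.0157, or 0.0989 after removal of length and GC trends and 0.0559 without HA/Mg replicate 5).

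Genes known to respond to the 10 receptors' ligands were counted in the same fit, in which 18.1% of all tested genes changed and 5.07% rose. Of 8 tested type I interferon targets 6 rose and 2 did not pass, with a median log2 change of 0.35, against -0.04 over all genes. The number changed was 4 with a filter of 5 FPKM, which were all of the targets that this filter left in the test. Targets that never reached 5 FPKM, Zbp1 among them, were no longer tested. With that filter 1554 of 6414 tested genes changed. The number of targets changed was 5 after rescaling to equal sums or removal of length and GC trends. It was 7 with median-of-ratios scaling, quantile normalization or array weights. Counts over all genes in these settings are given with the JAK and STAT genes above. Zbp1, a nucleic acid sensor, averaged 2.92 ± 0.350 FPKM with TABS and 1.65 ± 0.159 FPKM with HA/Mg (SD, n = 4 each; limma adjusted p = 0.00851), and Oas1a, an antiviral synthetase, 130 ± 9.31 FPKM with TABS and 104 ± 3.69 FPKM with HA/Mg (limma adjusted p = 0.0129). Irf7, the factor that amplifies type I interferon production, rose by 0.53 ± 0.08 on the log2 scale (SE; limma adjusted p = 0.00939), as did Usp18, described above. Of 12 interferon-gamma targets 7 stayed under 1 FPKM, including Cxcl9 at 0 FPKM in every library, and of the 5 tested Icam1 and Irf8 rose (0 after removal of length and GC trends, 4 with array weights). In these settings 783 and 3532 of all 10161 tested genes changed. Icam1, an adhesion molecule, averaged 15.7 ± 1.93 FPKM with TABS and 11.9 ± 0.624 FPKM with HA/Mg (SD, n = 4 each; limma adjusted p = 0.0197, or 0.0549 and 0.0655 without HA/Mg replicate 7 or 5). Irf8, a macrophage transcription factor, averaged 31.0 ± 0.982 FPKM with TABS and 27.4 ± 0.486 FPKM with HA/Mg (limma adjusted p = 0.0215, or 0.0745 after rescaling to equal sums). Leaving out TABS library 6 or 7, or HA/Mg library 5, 7 or 8, ended the call of Irf8 as well (adjusted p from 0.0507 up to 0.0644).

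Of 6 tested IL-10 targets Bcl3 and Socs3 rose and 4 did not pass. The number changed was 0 after removal of length and GC trends and 4 with median-of-ratios scaling or quantile normalization. In these settings, in that order, 783, 1917 and 1998 of all 10161 tested genes changed. Over all tested genes 5.07% rose and 18.1% changed, and lists this short give no result about a pathway. Bcl3, a nuclear regulator of NF-kB, averaged 23.2 ± 0.747 FPKM with TABS and 18.4 ± 1.18 FPKM with HA/Mg (SD, n = 4 each; limma adjusted p = 0.00984, or 0.0811 after removal of length and GC trends). Of 10 IL-4 targets 9 stayed under 1 FPKM, with Retnla and Chil3 listed at 0 FPKM throughout, and the 1 tested, the chemokine Ccl22, rose (10.3 ± 1.15 FPKM with TABS and 5.76 ± 1.07 FPKM with HA/Mg, SD; limma adjusted p = 0.00939). Of 4 tested GM-CSF targets Pim1 and Osm rose and 2 did not pass. Pim1, a survival kinase, averaged 26.6 ± 4.34 FPKM with TABS and 16.8 ± 1.003 FPKM with HA/Mg (SD, n = 4 each; limma adjusted p = 0.00971). Osm, the cytokine oncostatin M, averaged 8.53 ± 2.11 FPKM with TABS and 5.40 ± 0.293 FPKM with HA/Mg (limma adjusted p = 0.0282), and the call was lost when TABS library 5, or HA/Mg library 5, 7 or 8, was left out (adjusted p from 0.0598 up to 0.0779). Removal of length and GC trends also ended the calls of Icam1 (adjusted p = 0.0870), Irf8 (0.0578) and Osm (0.0871). Without the filter on low values those of Il2rg (adjusted p = 0.0556), Ccl9 (0.0738), Socs3 (0.0790), Icam1 (0.0571) and Osm (0.0855) ended too. Many of these genes respond to other signals as well, and which signal acted was not tested.

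**Figure D5:**
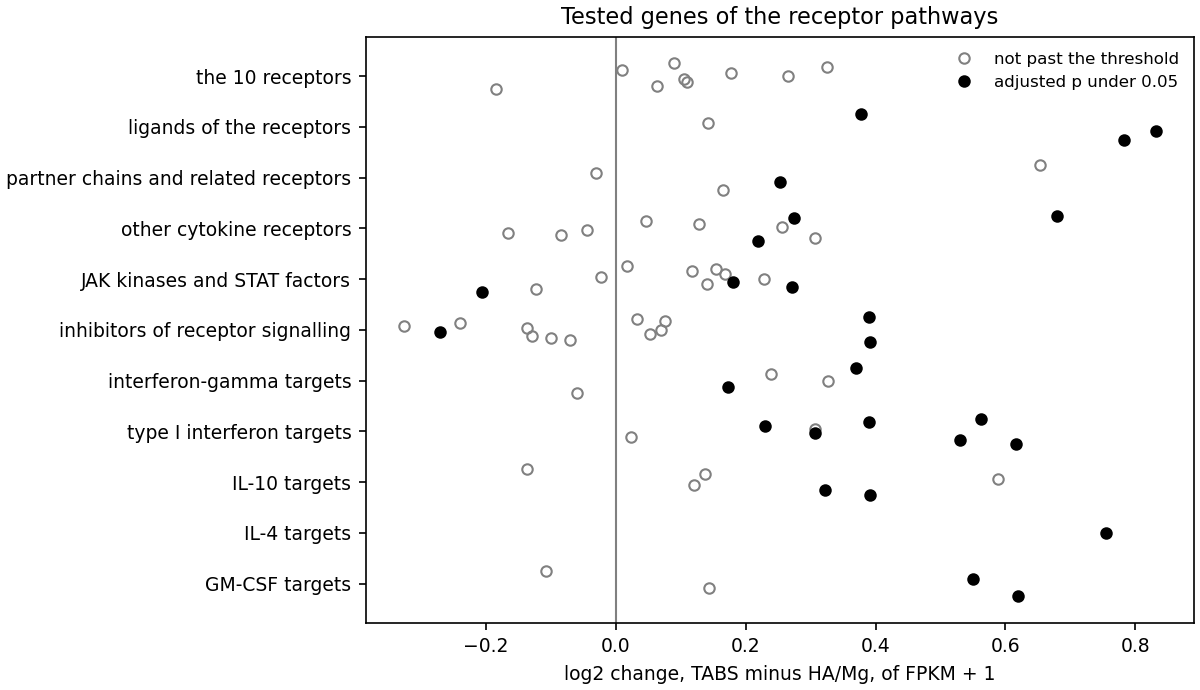
Log2 change (TABS minus HA/Mg, of FPKM + 1) of each tested gene in the 10 receptors and in 10 lists of related genes, with filled points at a limma adjusted p under 0.05. The receptors lie between -0.18 and 0.33 with none filled, and 3 of 4 ligands and 6 of 8 type I interferon targets are filled. Of all tested genes 18.1% passed that threshold.

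Other receptor genes gave further values for the same cells. Of 10 other cytokine receptors tested 3 rose and 7 did not pass, and of 4 partner chains and related receptors Il2rg alone rose. Over all tested genes 5.07% rose and 18.1% changed. Csf1r, the receptor of the macrophage growth factor, averaged 112 ± 3.72 FPKM with TABS and 96.5 ± 0.988 FPKM with HA/Mg (SD, n = 4 each; limma adjusted p = 0.0112). The TNF receptors rose too, Tnfrsf1b with 62.2 ± 12.4 FPKM with TABS and 37.9 ± 1.19 FPKM with HA/Mg (limma adjusted p = 0.0120) and Tnfrsf1a with 31.5 ± 2.71 FPKM with TABS and 25.8 ± 0.664 FPKM with HA/Mg (limma adjusted p = 0.0181, or 0.117 after removal of length and GC trends). The call of Tnfrsf1a was lost when HA/Mg library 5, 7 or 8 was left out (adjusted p from 0.0524 up to 0.0596). Whether the 9 receptors changed less than these was not tested.

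The receptors differed in how steady they were. Ifnar2 varied less within groups than most genes (residual SD 0.0582 on the log2 scale, with 13.3% of tested genes lower), as did Ifngr2 (0.0696, 22.3%) and Il10rb (0.0731, 24.7%), all of the chromosome 16 cluster. The fourth gene of the cluster, Ifnar1, had a residual SD of 0.140 (70.2% of genes lower). Csf2rb (0.331, 96.8%), Il10ra (0.322, 96.5%), Il4ra (0.194, 87.3%) and Csf2ra (0.189, 86.1%) were among the more variable genes. The residual SD pools both groups, and for some genes 1 group held most of the spread. The SD was 2.68 FPKM with TABS and 0.0986 FPKM with HA/Mg for Csf2rb, and 3.36 and 0.798 FPKM for Csf2ra. For Il4ra it was 0.278 FPKM with TABS and 0.771 FPKM with HA/Mg. Ifngr1 had a residual SD of 0.131 (65.8%). The counting error estimated from implied fragments was 2.39% at the lowest Ifnar2 value, 4.58% at the lowest Csf2rb value and 5.64% at the lowest Il10ra value.

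Genes with the profile most like Il10rb and Ifnar2, the 2 receptors with the smallest p, were found by the root-mean-square difference of centred log2(FPKM + 1) over the 8 libraries. For Il10rb they were Arhgap1 (difference 0.0261), Atp6ap1 (0.0269) and Abca2 (0.0285), where a flat profile would differ by 0.109. For Ifnar2 they were Ap2a1 (0.0212), Hdac5 (0.0217) and Coq9 (0.0233), where a flat profile would differ by 0.0728. All 6 had positive log2 changes, from 0.10 for Hdac5 to 0.17 for Atp6ap1, a sign and size that follow from how they were chosen.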

How the data were processed

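RNA of RAW264.7 cells was sequenced in 8 libraries, 4 with TABS and 4 with HA/Mg. The submitters' processing notes name fastp, STAR, DESeq2 and the build GRCm38; for the versions, annotation, strand use and the program behind the FPKM values, the sources used here give nothing. A single table of FPKM, deposited by the authors, covers 55335 gene identifiers, and 55154 of them are in the GENCODE M21 annotation (GRCm38) used for positions. FPKM holds no counts. Low values were whole multiples of 1 fragment within 0.05 fragment in 29.6% to 31.0% of cases (10% by chance for a size set beforehand). The size of 1 fragment was chosen to make that share largest, so 10% is not the chance level of the share. No count test was run, and depths and counting errors, which cover counting only, are estimates. Those of the receptors assume the longest annotated transcript.

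Genes with at least 1 FPKM in at least 4 libraries (10161) were tested on log2(FPKM + 1) with limma 3.58.1 in R 4.3.3, with a mean-variance trend and Benjamini-Hochberg adjustment over all of them; an adjusted p under 0.05 counts as changed. Ratios of receptor chains were tested by exact two-sided permutation over 70 assignments, adjusted over 4 pairs. Over all pairs, libraries correlated at 0.983 to 0.994 and shared at most 4 identical values above 0. The genes named are the 10 receptors, up to 4 changed genes of each of 10 lists with the smallest adjusted p, and the 3 genes of at least 5 FPKM most like each of the 2 receptors with the smallest p; other genes named at low levels, or that did not pass, were chosen after their values were seen. Some genes of the lists are not reported here. The receptors and lists were chosen with earlier results of these data known. Alternatives changed the pseudocount, filter, scaling, length and GC trends, variance model, library weights, replicate block and libraries.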

Additional observations from a re-analysis of the deposited data

Results flagged for a closer look

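Ifnar1 stood at 12.42 FPKM in HA/Mg replicate 8, against 10.29 to 10.54 FPKM in the other 3 HA/Mg libraries, a gap that is 0.884 of the group's range. Irf8, one of the interferon-gamma targets, stood at 26.66 FPKM in HA/Mg replicate 6, against 27.56 to 27.72 FPKM in the other 3 HA/Mg libraries, a gap that is 0.848 of the range. Both were picked out because 1 library lay far from its companions by Dixon's test for groups of 4. Chance flags about 1 in 20 groups, and 70 groups were examined for 2 flags. Without HA/Mg replicate 8 the log2 change of Ifnar1 was 0.17 (limma adjusted p = 0.227).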

How the results depend on the processing

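The 1842 changed genes became 808 with no filter on low values, 783 with length and GC trends removed, 3532 with array weights, and 429 (without HA/Mg replicate 5) to 3320 (without HA/Mg replicate 6) when 1 library was left out. Among changed genes, the higher ones made up 28.0%, which was 44.8% with median-of-ratios scaling, 40.3% with quantile normalization and 13.9% after rescaling to equal sums. The count of changed receptors, 0, was 1 (Il10rb) with median-of-ratios scaling, quantile normalization and array weights, and 0 to 1 with 1 library left out. The 24 changed genes of the pathway lists became 15 with length and GC trends removed, 33 with median-of-ratios scaling, 32 with quantile normalization, 36 with array weights and 13 to 29 with 1 library left out. With 1 library left out the log2 ratio difference was -0.36 to -0.23 for Ifngr1/Ifngr2, -0.04 to 0.08 for Ifnar1/Ifnar2, -0.06 to 0.31 for Il10ra/Il10rb and -0.53 to -0.04 for Csf2ra/Csf2rb. The cause of these shifts was not tested.

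In a fit with replicate numbers as a block, 0 genes passed in limma (2987 at an unadjusted p under 0.05; smallest adjusted p = 0.0589), 0 receptors and 0 pathway genes. Same-numbered libraries correlated at 0.01, -0.27, -0.16 and 0.13 in their deviations from the group means. With so few libraries these correlations do not settle whether the numbers mark a pairing. The chain ratios under exact sign-flip permutation of same-numbered libraries had p = 0.125, the smallest possible, for Ifngr1/Ifngr2, 1 for Ifnar1/Ifnar2 and Il10ra/Il10rb, and 0.5 for Csf2ra/Csf2rb. Depth limits Ccr1, at 1 to 6.03 implied fragments.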
